A study of Mus musculus with 9 samples.

Results

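Mast cell transcripts in the mouse cornea were followed through 10 genes, read by name from a count table of 34165 gene names: Cpa3, Mcpt4, Tpsb2, Tpsab1, Cma1, Kit, Fcer1a, Ms4a2, Gata2 and Hdc. The list was drawn up with earlier results of these libraries in view, so the levels and group differences of the 10 genes are given as a description. How many of them passed the call rule applied to all genes is stated once, and nothing is read from it. RNA from whole corneas had been sequenced in bulk in 3 groups, all of them mouse: wild type without treatment (WT, n = 3), Aire knockout without treatment (KO, n = 2), and the same knockout under PBS, a buffered salt solution (KO + PBS, n = 4). Aire is the thymic regulator that exposes developing T cells to tissue antigens, and the series presents its loss as a model of dry eye. No strain, sex or deleted part of Aire is given in the sources used here, nor is it said whether a replicate is 1 mouse or a pool. Untreated libraries are titled 5 wk and the treated ones 24 hr, whereas the design text places collection at treatment day 7 and 6 wk of age, and the labels do not settle this. Corneas given Lacripep, named in the same design text, were not analysed here.

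Mast cells are tissue-resident granulocytes that lie along vessels and nerves, on the eye mainly in the conjunctiva and at the edge of the cornea. Their granules hold histamine and proteases bound to proteoglycan, and release follows when antigen cross-links IgE held on the high-affinity receptor FcεRI. Their survival depends on stem cell factor acting through the receptor Kit. In the mouse, the connective tissue type is marked by the chymases Mcpt4 and Cma1, the tryptases Tpsb2 and Tpsab1, and carboxypeptidase Cpa3, while the mucosal type carries Mcpt1 and Mcpt2.

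The granule serine proteases come in pairs of related genes, so the letters that tell their reads apart are shown first. Tpsb2 (chr17:25366305-25369098, plus strand, GRCm38) and Tpsab1 (chr17:25343245-25345562, minus strand) are the tryptases. In the stretch of 120 coding bases below, capitals mark the 36 positions at which the pair differ.
Tpsb2: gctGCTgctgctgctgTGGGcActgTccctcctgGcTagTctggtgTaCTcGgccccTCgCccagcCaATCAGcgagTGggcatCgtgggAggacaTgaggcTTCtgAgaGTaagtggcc
Tpsab1: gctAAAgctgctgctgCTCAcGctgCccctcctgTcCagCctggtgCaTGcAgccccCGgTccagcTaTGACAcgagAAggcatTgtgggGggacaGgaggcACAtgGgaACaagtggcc
Mcpt4 (chr14:56059629-56062313, minus strand) and Cma1 (chr14:55941451-55944675, minus strand) are the chymases. Capitals mark 48 differing positions in 120 coding bases.
Mcpt4: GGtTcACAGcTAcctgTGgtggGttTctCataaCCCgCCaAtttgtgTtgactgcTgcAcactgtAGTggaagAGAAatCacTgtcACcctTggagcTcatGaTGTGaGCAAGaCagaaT
Cma1: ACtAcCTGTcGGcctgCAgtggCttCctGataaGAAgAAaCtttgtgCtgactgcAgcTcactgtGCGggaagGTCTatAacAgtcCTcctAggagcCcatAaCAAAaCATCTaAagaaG
Over the aligned coding sequence without gaps, identity was 74.9% for the tryptases and 66.7% for the chymases. No stretch of 50 bases was shared among these 4 genes in the annotated transcripts. Stretches of that length were shared by Mcpt4 with Cma2 and Mcpt9 (5.48% of its words) and by Cma1 with Gm48934 (5.46%), so a small part of those reads cannot be assigned with certainty.

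The 9 libraries held 22944576 to 104518572 counts, and values below are counts per 1000000 library counts (CPM) scaled by TMM factors unless said otherwise. No library repeated another. Aire itself was read 0 to 16 times per library, in WT 3 to 16 and in KO 0 and 3 times, which is too few to check the genotype labels. The treated libraries were of another kind than the 5 untreated ones: processed pseudogenes took 16.6 to 20.9% of untreated and 0.209 to 0.267% of treated counts, and mitochondrial genes had 0 counts in the untreated libraries but 0.797 to 6.13% in the treated ones. Treatment and kind of library therefore cannot be told apart in either comparison with KO + PBS. Summed markers of the stroma were 7732 to 9349 CPM (not TMM-scaled, as for all sums of lists) in WT, 2284 and 2663 in KO and, in KO + PBS replicates 1 to 4, 1362, 10944, 2451 and 5084. TMM factors were 0.709 to 0.856 in untreated and 1.15 to 1.54 in treated libraries. Scaling would thus lower the treated sums and raise the untreated ones. In KO + PBS replicate 2, Ptgds was at 1613 TMM-scaled CPM, beside 51.8 to 455 in WT. On that scale Kera, Dcn, Col1a1 and Col1a2 were below every WT library there, and Lum lay within the WT range. In whole tissue, fewer cells of a type and less RNA per cell cannot be told apart.

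All 10 genes had reads in every WT library. The 4 serine proteases were read in all WT corneas, sparsely in 1 of the 2 KO corneas, and in 1 of the 4 KO + PBS corneas beyond a single read. Cpa3 was lower in both KO libraries than in every WT library and lay between the WT and KO levels in all 4 KO + PBS libraries. Kit, by contrast, had overlapping levels in WT and KO and was higher in KO + PBS. The α and β chains of FcεRI were near the limit of detection, and Gata2 and Hdc overlapped across the groups.

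**Figure D1:**
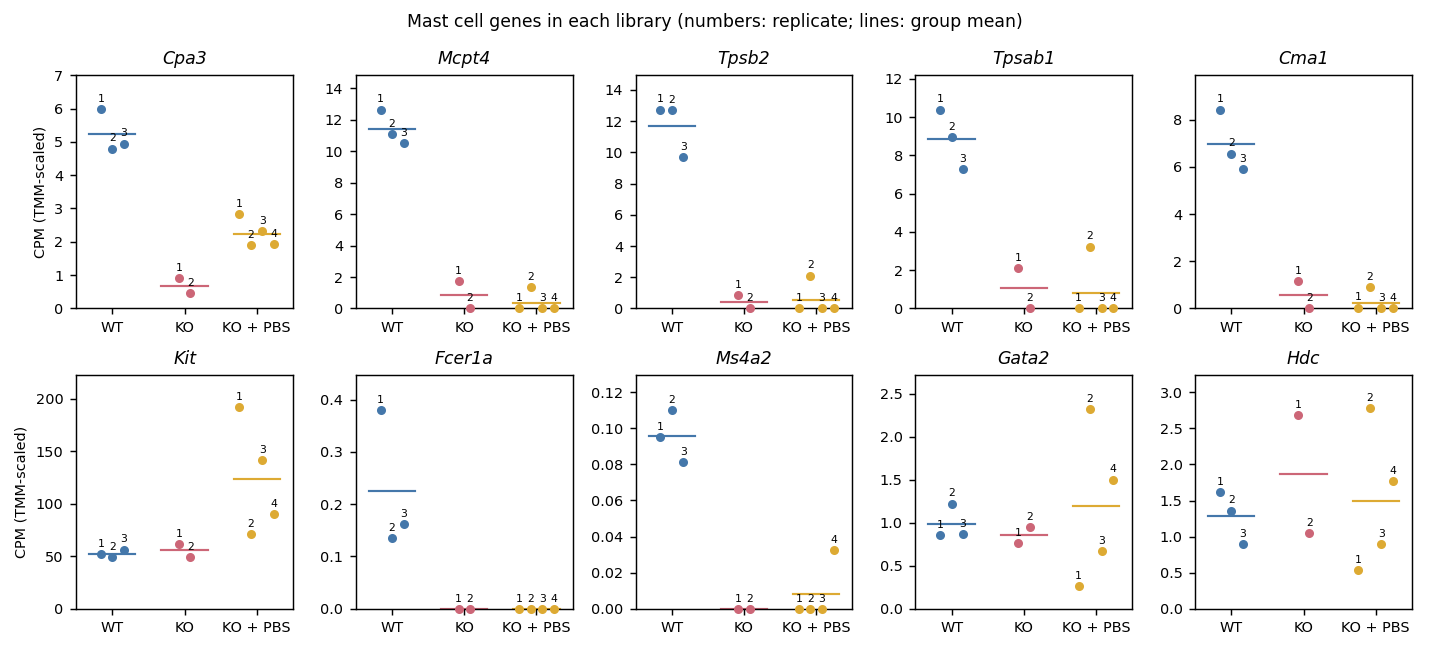
Level of each of the 10 mast cell genes in each library, in TMM-scaled CPM, by group (WT, n = 3; KO, n = 2; KO + PBS, n = 4). Points are libraries, labelled with their replicate number, and lines are group means. The serine proteases stand at 0 in KO replicate 2 and in KO + PBS replicates 3 and 4, and Kit is highest in KO + PBS.

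Mcpt4 encodes the chymase that in mice is thought the nearest functional counterpart of the single human chymase. Its level was 12.6, 11.1 and 10.5 CPM in WT replicates 1 to 3, 1.73 and 0 in KO replicates 1 and 2 and, in KO + PBS replicates 1 to 4, 0, 1.33, 0 and 0. Every library of both knockout groups lay below every WT library. Cma1, the other chymase, measured 8.43, 6.56 and 5.89 CPM in WT, 1.15 and 0 in KO and, in KO + PBS, 0.0379, 0.908, 0 and 0. Its value in KO + PBS replicate 1 came from 1 read.

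Tpsb2, a tryptase of the granule, was at 12.7, 12.7 and 9.70 CPM in WT, 0.863 and 0 in KO and, in KO + PBS, 0, 2.10, 0 and 0. Tpsab1, the neighbouring tryptase gene, was at 10.4, 8.95 and 7.27 CPM in WT, 2.11 and 0 in KO and, in KO + PBS, 0, 3.24, 0 and 0. The same libraries had reads for both tryptases and for Mcpt4, namely the 3 WT libraries, KO replicate 1 and KO + PBS replicate 2.

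Together the 4 serine proteases had 1395, 3209 and 1234 reads in WT, 122 and 0 in KO and, in KO + PBS, 1, 267, 0 and 0. In CPM, not TMM-scaled, this was 28.5 to 36.4 in WT, 4.81 in KO replicate 1 (exact Poisson 95% interval 4.00 to 5.75) and 11.7 in KO + PBS replicate 2 (10.3 to 13.1). The intervals cover counting error only. They also leave out the TMM factors, 0.823 for KO replicate 1 and 1.54 for KO + PBS replicate 2. Scaling by these factors narrows the gap between the sums of those libraries. KO replicate 2, with 68534734 counts, was the deeper of the KO libraries, and its 0 reads allow up to 0.0438 CPM at 3 counts. In the treated libraries at 0, the limit was 0.111 CPM in replicate 3 and 0.131 CPM in replicate 4.

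On the log2 scale the KO minus WT difference was -3.82 ± 2.07 (SE) for Mcpt4, -3.71 ± 1.94 for Cma1, -4.94 ± 2.30 for Tpsb2 and -3.15 ± 2.33 for Tpsab1. KO held 1 library with reads and 1 without, and the standard errors were wide. With KO replicate 2 left out, the differences were -2.81, -2.68, -3.84 and -2.15 in the same order. With KO replicate 1 left out, the remaining KO library had 0 reads, and the fitted values of -11.87, -11.15, -11.91 and -11.50 rest on the fit's handling of that 0 and are no bounds. KO + PBS differed from WT by -5.04 ± 1.64 for Mcpt4, -4.82 ± 1.53 for Cma1, -4.44 ± 1.63 for Tpsb2 and -3.43 ± 1.77 for Tpsab1. Between KO + PBS and KO the differences were smaller than their standard errors for all 4 proteases, and the libraries of the groups overlapped.

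Cpa3 (chr3:20215620-20242181, minus strand) encodes mast cell carboxypeptidase A, a granule protease of another class that removes amino acids from the carboxyl end. It had reads in all 9 libraries. Its level was 5.99, 4.80 and 4.95 CPM in WT, 0.911 and 0.453 in KO and, in KO + PBS, 2.84, 1.90, 2.32 and 1.93. The groups did not overlap, with WT highest, KO lowest and KO + PBS in between. The log2 difference was -2.97 ± 0.43 for KO against WT, 1.75 ± 0.40 for KO + PBS against KO, and -1.22 ± 0.31 for KO + PBS against WT. The direction was the same under all 16 alternatives of each comparison. Leaving out any 1 of the 9 libraries moved the KO against WT value between -3.60 and -2.60. The annotated microRNA gene Mir7007 lies within Cpa3 on the same strand and was not separated from it.

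Set against Cpa3 within each library, a scale that does not depend on library size, the proteases gave unlike ratios. Those in KO replicate 1 rest on 19 Cpa3 reads and those in KO + PBS replicate 2 on 67, and no counting error was set on them. Mcpt4 had 2.11, 2.31 and 2.12 reads for each Cpa3 read in WT, 1.89 and 0 in KO and, in KO + PBS, 0, 0.701, 0 and 0. In KO replicate 1 the ratio to Cpa3 was thus close to that in WT, although both genes were lower there. Tpsab1 had 1.74, 1.86 and 1.47 reads per Cpa3 read in WT. Its ratio was 2.32 in KO replicate 1, above the WT values, and 1.70 in KO + PBS replicate 2, within their range. Tpsb2 had 1.96 to 2.64 in WT, 0.947 in KO replicate 1 and 1.10 in KO + PBS replicate 2. For Cma1 the ratio was 1.19 to 1.41 in WT, 1.26 in KO replicate 1 and 0.478 in KO + PBS replicate 2. In KO replicate 2 and in KO + PBS replicates 1, 3 and 4, Cpa3 had 22, 75, 83 and 59 reads, while the serine proteases had 0, 1, 0 and 0.

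**Figure D2:**
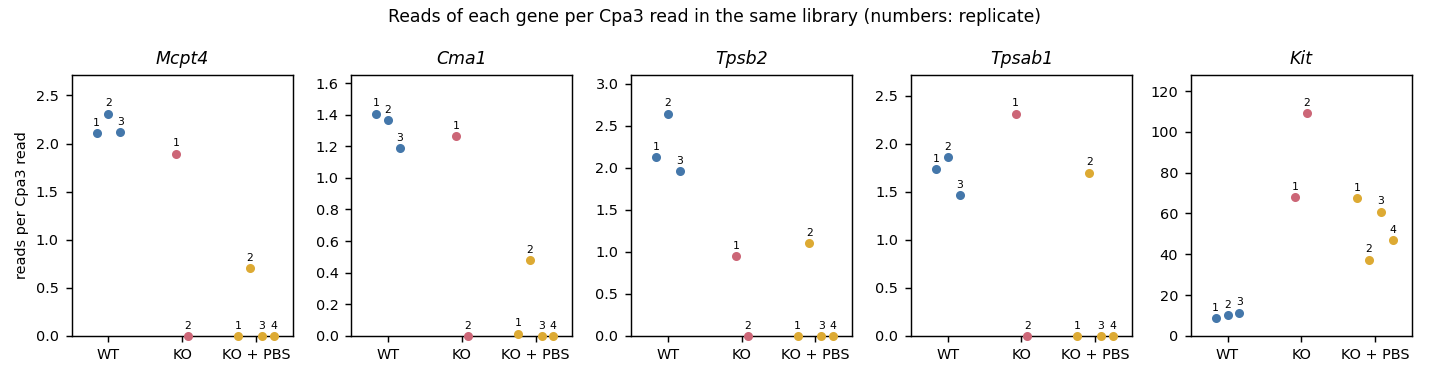
Reads of each serine protease and of Kit per Cpa3 read in each library, by group. Points are libraries. Mcpt4 stands at 2.11 to 2.31 in WT and at 0 in 4 of the 6 knockout libraries, while Kit is above its WT range in every knockout library.

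Kit (chr5:75574916-75656722, plus strand) is the receptor tyrosine kinase for stem cell factor, and melanocytes and some epithelial cells also use it. Its level was 52.2, 49.2 and 56.3 CPM in WT, 61.9 and 49.6 in KO and, in KO + PBS, 192, 71.1, 141 and 90.4. The untreated groups overlapped, and every KO + PBS library lay above all 5 untreated ones. The log2 difference was 0.08 ± 0.37 for KO against WT, a value whose sign changed without WT replicate 2 (-0.02), without KO replicate 1 (-0.16) or without the filter on low counts (-0.01). KO + PBS exceeded KO by 1.15 ± 0.37 and WT by 1.23 ± 0.32. For each Cpa3 read there were 8.71, 10.3 and 11.4 Kit reads in WT, 68.0 and 109 in KO and, in KO + PBS, 67.5, 37.4, 60.9 and 46.8.

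Markers of melanocytes did not order the libraries as Kit did. Their sum over 9 genes, all measured, was 521, 182 and 119 CPM in WT, 225 and 469 in KO and, in KO + PBS, 147, 5086, 545 and 228. KO + PBS replicate 2 had the highest melanocyte sum and the lowest Kit level of its group, and replicate 1 the lowest melanocyte sum of its group and the highest Kit. Corneal epithelial markers (5 of 5 measured) summed to 61426 to 68394 CPM in WT, 52507 and 67995 in KO and, in KO + PBS, 57120, 34700, 56801 and 52443. Within KO + PBS, replicate 2 was lowest in this sum and in Kit, although Pax6 was lowest in replicate 4 and Krt14 in replicate 3. The sum also hides members that went opposite ways. In KO + PBS against WT, Krt12 and Aldh3a1 were called lower and Pax6 higher. Krt12 averaged 30312 CPM in WT and 4939 in KO + PBS (TMM-scaled). In KO against WT, Krt14 was called higher. The part of either cell type in the level of Kit was not tested.

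Fcer1a (chr1:173221284-173227214, minus strand) encodes the α chain of FcεRI, which binds IgE. It had 12, 11 and 6 reads in WT and 0 in all 6 knockout libraries, that is 0.135 to 0.380 CPM against none. At 3 counts per library as the limit, it was at least 2.20-fold lower in KO and at least 2.37-fold lower in KO + PBS than in WT. Counting error on the WT reads is left out of these limits. Without WT replicate 1, the library highest in Fcer1a, they were 1.44-fold and 1.56-fold. For KO the limit was 3.66-fold without KO replicate 1 and 1.57-fold without KO replicate 2. Ms4a2 (chr19:11615523-11623719, minus strand), the β chain that amplifies the receptor's signal, had 3, 9 and 3 reads in WT, 0 in both KO libraries and a single read over the KO + PBS libraries, in replicate 4. Such counts are too near the limit for a fold. Neither gene passed the filter on low counts. Fcer1g, the γ chain shared with other Fc receptors of myeloid cells, was at 12.9 ± 2.26 CPM in WT (SD, n = 3), 20.9 ± 5.81 in KO (n = 2) and 5.76 ± 6.11 in KO + PBS (n = 4), with no call in any comparison.

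Gata2 (chr6:88193891-88207032, plus strand) is the transcription factor that mast cells need to keep their identity, and endothelial and progenitor cells use it as well. It measured 0.856, 1.22 and 0.865 CPM in WT, 0.767 and 0.947 in KO and, in KO + PBS, 0.265, 2.33, 0.671 and 1.50. Hdc (chr2:126593667-126619299, minus strand), the enzyme that makes histamine from histidine, measured 1.62, 1.36 and 0.892 CPM in WT, 2.68 and 1.05 in KO and, in KO + PBS, 0.530, 2.78, 0.895 and 1.77. For both genes the groups overlapped in all 3 comparisons, and the treated libraries spread more widely than the WT ones. The log2 difference for KO against WT was -0.19 ± 0.77 for Gata2 and 0.52 ± 0.71 for Hdc, and the latter became -0.37 without KO replicate 1. KO + PBS exceeded WT by 0.28 ± 0.64 for Gata2 and 0.22 ± 0.60 for Hdc, and both became -0.27 without KO + PBS replicate 2.

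Neutrophils also express Hdc. Their 10 markers, all measured, summed to 5.82 to 12.1 CPM in WT, 108 and 22.0 in KO and, in KO + PBS, 0.914, 3.45, 2.40 and 12.2. KO replicate 1 thus had the highest neutrophil sum and the highest Hdc of the untreated libraries, while in KO + PBS the highest Hdc was in replicate 2, whose neutrophil sum was below that of every WT library. Most of the neutrophil sum in KO replicate 1 was S100a9 (1902 reads) and S100a8 (365 reads). Camp, with 0 reads there, and Ngp did not lie above WT in both KO libraries, whereas the other neutrophil markers did. Blood vessel markers, whose cells use Gata2, summed to 51.7 to 65.2 CPM in WT, 61.9 and 58.8 in KO and, in KO + PBS, 25.7, 207, 64.1 and 74.4, where replicate 2 was highest and replicate 1 lowest for both these markers and Gata2. This vessel sum hides members that went opposite ways. With the untreated libraries fitted alone, Kdr was called lower in KO and Egfl7, Vwf and Pecam1 higher. In KO + PBS against KO, Kdr was called higher and Egfl7, Robo4 and Esam lower. The part of these cells in Hdc and Gata2 was not tested. The basophil markers, Mcpt8, Prss34 and Cd200r3, summed to at most 0.262 CPM in any library, and Prss34 had 0 reads in all 9.

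KO + PBS replicate 2 stood apart in its group in more than the mast cell proteases. It had the highest stroma (10944 CPM), melanocyte, vessel, lymphatic (136 CPM) and conjunctival (2332 CPM) sums of the 4 treated libraries, and the lowest corneal epithelial sum. Without it, the serine proteases had 1 read in the 3 remaining treated libraries. Within the untreated libraries, gland markers were 20.1 to 36.8 CPM in WT and 170 and 291 in KO, whereas conjunctival markers were 1053 to 1557 in WT and 1559 and 1432 in KO. The conjunctival sum was mostly keratins and hides Muc5ac, at 6.59, 14.5 and 9.22 CPM (TMM-scaled) in WT and 2.11 and 0.103 in KO. Muc5ac was at 0.530, 0.511, 0.224 and 0.0981 CPM in KO + PBS, where it was called lower than in WT. Krt13 and Spdef went the other way, higher in both KO libraries than in every WT library. Most of the gland sum was Ltf in KO replicate 1 (3941 reads) and Pip in KO replicate 2 (15283 reads). Ltf and Lpo were higher in both KO libraries than in every WT library. Awat2, Elovl3 and Far2 had lower means in KO than in WT, so the gland list did not rise as a whole. Whether the amount of tissue around the cornea bears on the mast cell genes was not tested.

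**Figure D3:**
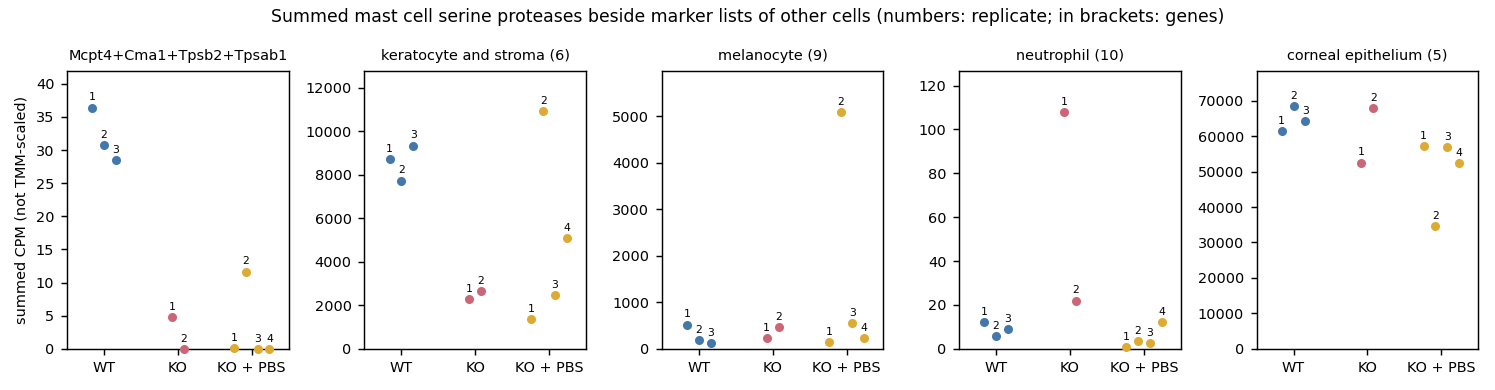
Summed CPM (not TMM-scaled) of the 4 serine proteases and of marker lists of other cell types in each library, by group. Points are libraries, labelled with their replicate number. KO + PBS replicate 2 has the highest melanocyte sum (5086), and the stroma sum is lower in both KO libraries (2284 and 2663) than in WT.

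Per kilobase of exon, so that genes can be compared, the order of mean levels in WT was Mcpt4 (10.3 CPM per kb), Tpsb2 (7.35), Cma1 (6.39), Kit (5.90), Tpsab1 (4.24) and Cpa3 (3.46). Fcer1a (0.226), Hdc (0.202), Gata2 (0.182) and Ms4a2 (0.0339) followed at a distance. The WT libraries of Mcpt4 (9.47 to 11.4 CPM per kb) lay above those of Tpsb2 (6.09 to 7.99), whereas those of Tpsb2 and Cma1 overlapped, as did those of Cma1 and Kit. In KO, Kit was highest at 6.26 CPM per kb and no other member reached 1. In KO + PBS, Kit was at 13.9 and Cpa3 second at 1.48 CPM per kb.

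**Figure D4:**
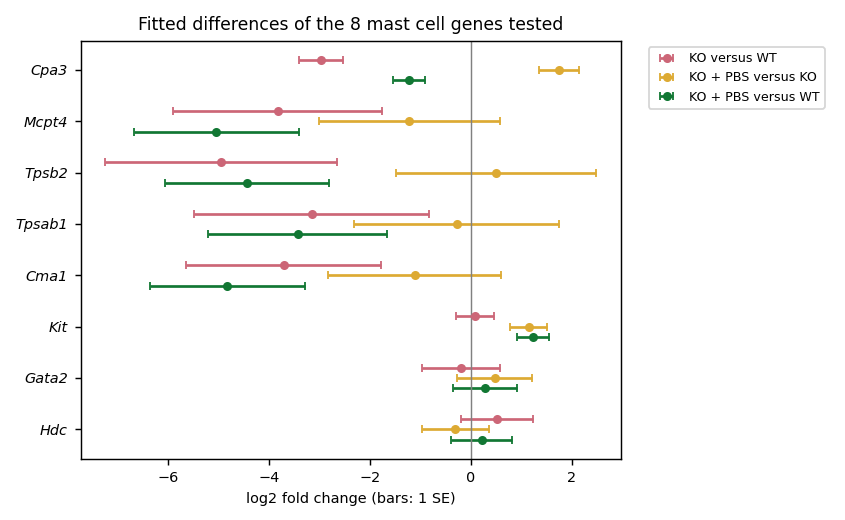
Log2 fold change (± SE, edgeR) of the 8 mast cell genes that passed the filter on low counts, in the 3 comparisons. Points are fitted values over all 9 libraries. The serine proteases lie at -3.15 to -4.94 for KO against WT with wide errors, and Cpa3 at -2.97 with a narrow one.

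Of the 10 members, 8 passed the filter on low counts. By edgeR's quasi-likelihood test (Benjamini-Hochberg adjusted p under 0.05, over 18489 genes), 1 member was called in KO against WT, Cpa3, where 1.67% of all genes were called and 0.703% were called lower. Without any 1 of the WT libraries, 0 members and 0 of all genes tested were called, and without KO replicate 2, 0 members and 0.255% of all genes. Between KO + PBS and KO, Cpa3 and Kit were called higher and none lower, where 23.6% of all genes were called higher and 29.7% lower and 53.4% in all. The count of members was 1 without KO replicate 1 (all genes 41.4%), KO replicate 2 (36.9%) or KO + PBS replicate 3 (48.9%). It was 5, of them 2 higher and 3 lower, without KO + PBS replicate 2, when 63.3% of all genes were called. Against WT, Kit was called higher in KO + PBS (all genes 27.1%) and Cpa3, Cma1, Mcpt4 and Tpsb2 lower (all genes 30%). That count of 5, beside 57.1% of all genes, became 2 without any 1 WT library (all genes 46.1 to 47.9%) and 3 without KO + PBS replicate 3 (52%). The members were chosen on these contrasts, so nothing is read from these counts. For 7 members every KO library lay below every WT library, and 5 of these 7 passed the filter. Over all genes tested the share was 26.4%. The others of the 7, Fcer1a and Ms4a2, lay below through 0 reads in KO. At 3 counts as the limit, such zeros do not place every KO library below every WT library (Ms4a2 at least 0.929-fold). The same 7 lay below WT in every KO + PBS library (all genes 33.5%), and Kit lay above it (26.7%). Between KO + PBS and KO, Cpa3 and Kit lay above in every library (all genes 26.9%) and none below (34%).

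Promoter sequence was looked at because the proteases shared a pattern that Cpa3 did not. The windows are the 250 bases before the annotated start, from RefSeq (GRCm38.p6), and capitals mark a match to the GATA motif, written as AGATAA or TGATAA and searched on both strands.
Cpa3 (chr3:20242182-20242431, minus strand): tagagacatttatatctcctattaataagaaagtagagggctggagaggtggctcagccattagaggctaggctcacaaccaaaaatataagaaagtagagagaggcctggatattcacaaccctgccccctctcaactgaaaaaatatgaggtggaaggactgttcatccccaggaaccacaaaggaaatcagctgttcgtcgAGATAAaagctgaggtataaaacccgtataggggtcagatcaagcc
Mcpt4 (chr14:56062311-56062560, minus strand): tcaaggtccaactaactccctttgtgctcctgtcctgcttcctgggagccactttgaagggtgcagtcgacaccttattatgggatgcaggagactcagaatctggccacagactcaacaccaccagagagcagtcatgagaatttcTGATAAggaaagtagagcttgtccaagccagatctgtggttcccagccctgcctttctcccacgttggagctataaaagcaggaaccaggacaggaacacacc
Cma1 (chr14:55944676-55944925, minus strand): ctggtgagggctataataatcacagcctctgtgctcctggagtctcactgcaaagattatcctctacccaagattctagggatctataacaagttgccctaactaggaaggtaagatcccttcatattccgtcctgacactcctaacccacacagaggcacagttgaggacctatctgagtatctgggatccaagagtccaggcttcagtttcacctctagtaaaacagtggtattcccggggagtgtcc
The match begins 46 bases before the start in Cpa3 and 103 bases before it in Mcpt4, and the Cma1 window holds neither form. Windows were found for 8 of the 10 members (10 windows, as Kit and Gata2 each have a pair of starts). None was found for Tpsb2 and Tpsab1, so of the serine proteases only the chymases could be looked at. A GATA match was held by 4 of the 10 windows, those of Fcer1a and Ms4a2 being the others. The start of the Fcer1a window was not matched in the GENCODE transcripts. Over 32851 promoter windows of this length, 16.6% held a GATA match. An E-box of the form CATGTG or CACGTG, searched on both strands and overlapping no GATA match, was in the window of Fcer1a alone among the members and in 17.6% of all windows. A match is a description of the letters alone.

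The other genes of mast cell biology were taken as 7 lists of 94 genes, of which 76 passed the filter. In KO against WT none was called by edgeR over all 9 libraries, where 14 had an unadjusted p under 0.05 and DESeq2 called 2 higher. Without KO + PBS replicate 2 the count was 8 (all genes 12.2%), and without KO + PBS replicate 1 it was 1 (2.13%). With the 5 untreated libraries fitted alone, 19 of 74 rose and 5 fell, 32.4% against 20.4% of all genes. The median log2 difference of the 76 was 0.28, beside -0.02 over all genes. Between KO + PBS and KO, 14 rose and 9 fell (30.3%, all genes 53.4%; median 0.20, all genes -0.02), and the count was 14 in place of 23 without KO replicate 2 (all genes 36.9%). Between KO + PBS and WT, 23 rose and 5 fell (36.8%, all genes 57.1%; median 0.46, all genes 0.05), and 17 were called without WT replicate 1 (all genes 47.9%). The comparisons with KO + PBS share its libraries.

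Among the ligand and signalling genes of Kit, 5 of 12 rose and 1 fell in KO + PBS against KO, and 7 rose in KO + PBS against WT. Kitl encodes stem cell factor, the ligand of Kit. Its level was 4.12, 2.82 and 3.60 CPM in WT, 2.25 and 2.06 in KO and, in KO + PBS, 27.1, 19.4, 29.9 and 16.2. It rose by 3.43 ± 0.33 on the log2 scale against KO (edgeR adjusted p = 3.32e-05) and by 2.72 ± 0.27 against WT (adjusted p = 3.1e-05). All treated libraries lay above all untreated ones for the ligand as for the receptor, and the order of the 4 treated libraries was not the same for both. Pik3r1, the regulatory subunit of PI3-kinase, rose by 1.67 ± 0.18 against KO (edgeR adjusted p = 6.63e-05). Ptpn11, the phosphatase SHP2, rose by 1.36 ± 0.19 (edgeR adjusted p = 0.000371). These genes are used by many cell types.

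Among the genes of IgE receptor signalling, 4 of 17 rose and 1, Orai1, fell in KO + PBS against KO. Against WT, 4 rose in KO + PBS. Plcg1, a phospholipase that releases the signal for calcium, rose by 0.96 ± 0.17 against KO (edgeR adjusted p = 0.00136), and Prkcd, a protein kinase C, by 1.02 ± 0.23 (adjusted p = 0.00509). Lat2, an adaptor of mast cells, B cells and myeloid cells, rose by 3.00 ± 0.73 against WT (edgeR adjusted p = 0.00679), from 0.233 to 0.351 CPM in WT to 1.01 to 5.26 in KO + PBS.

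Of the 18 other granule and surface genes, 11 passed the filter. In KO + PBS against KO, 2 rose (Hs6st2 and Rab27b) and 2 fell (Mcpt2 and Enpp3). The 2 that rose in KO + PBS against WT were again Rab27b and Hs6st2. The mucosal-type proteases Mcpt1 and Mcpt2 are among the 18 genes. Mcpt1 had 0.285, 0.490 and 0.189 CPM in WT, 1.29 and 1.09 in KO and, in KO + PBS, 0.492, 0.0851, 0.587 and 0.589. Both KO libraries lay above every WT library, the reverse of Mcpt4. Its KO against WT difference of 1.85 ± 0.73 was not called over all 9 libraries (edgeR adjusted p = 0.228) and was called with the untreated libraries alone (1.83 ± 0.48, adjusted p = 0.0383). Mcpt2 had 6, 18 and 12 reads in WT, 25 and 27 in KO and, in KO + PBS, 2, 0, 8 and 4. It fell by 2.96 ± 0.86 on the log2 scale in KO + PBS against KO (edgeR adjusted p = 0.0176), a call absent without KO replicate 1 (-2.24, adjusted p = 0.143). Mrgprb1 and Mrgprb2, receptors of connective tissue mast cells, had 4 to 18 and 4 to 12 reads in WT and 0 in both KO libraries, and did not pass the filter. Over the KO + PBS libraries, Mrgprb1 had 5 reads in replicate 2 and Mrgprb2 1 read in replicate 1.

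Of the 10 tested genes of lipid mediators, 2 rose (Pla2g4a and Ptgs2) and 2 fell (Ltc4s and Lta4h) in KO + PBS against KO. Against WT, 3 rose and 3 fell in KO + PBS. Ltc4s, which makes leukotriene C4, was at 0.622 to 0.983 CPM in WT, 0.719 and 1.30 in KO and, in KO + PBS, 0, 0.0568, 0 and 0.131. It fell by 4.35 ± 0.90 on the log2 scale against KO (edgeR adjusted p = 0.00327). Ptgs2, the inducible cyclooxygenase, rose by 3.82 ± 0.81 against KO (edgeR adjusted p = 0.00356). Of the histamine receptors and breakdown enzymes, 0 of 5 were called in any comparison over all 9 libraries. Hnmt, which inactivates histamine, was at 3.75 to 4.54 CPM in WT and 1.68 and 1.91 in KO, and with the untreated libraries alone it fell by 1.21 ± 0.24 (edgeR adjusted p = 0.0147). In the same fit Hrh2, a histamine receptor, rose by 1.67 ± 0.44 (edgeR adjusted p = 0.040), so 1 of the 3 tested genes of this list rose and 1 fell.

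Of the 11 tested cytokines and receptors, 3 fell in KO + PBS against KO, namely Tslp, Il3ra and Crlf2. In KO + PBS against WT, 2 rose (Il13ra1 and Il33) and 2 fell (Crlf2 and Tslp). Il13ra1, a receptor chain for interleukin-13, was at 10.2 to 14.6 CPM in WT, 65.8 and 23.1 in KO and, in KO + PBS, 28.0 to 58.9, and rose against WT in KO + PBS by 1.79 ± 0.38 (edgeR adjusted p = 0.00322). Of the 10 tested lineage transcription factors, 1 rose in KO + PBS against KO and 5 rose in KO + PBS against WT. Fli1, shared with endothelium and other blood cells, rose by 3.00 ± 0.55 against KO (edgeR adjusted p = 0.00158). Mitf, which mast cells share with melanocytes, was at 3.36 to 5.81 CPM in the untreated libraries and 4.77, 48.4, 7.74 and 3.69 in KO + PBS, with its highest value in the library with the highest melanocyte sum.

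Likeness of pattern was measured as the root mean square difference of centred log2(CPM + 0.5) over the 9 libraries. Among the members, Mcpt4 was nearest to Tpsb2 (0.298) and to Cma1 (0.321), and Gata2 to Hdc (0.385). Cpa3 lay 1.23 to 1.52 from the serine proteases, and Kit 2.18 to 2.50. Among 13894 other genes, those nearest to Cpa3 were Gnal (0.398), Ass1 (0.400), Fkbp3 (0.403), Hrsp12 (0.423) and Gzmm (0.428). Those nearest to Kit were Tmem194 (0.131), Map3k1 (0.140), Mfap3l (0.141), Slc6a6 (0.147) and Prickle2 (0.154). These distances describe 9 libraries that share group and library kind.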

How the data were processed

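The deposited values are counts: whole-number reads per gene in each library, not normalized by the authors. The submitters' processing notes name fastp, STAR, featureCounts and mm10; versions, annotation and strandedness are likewise not given in the sources used here. Libraries were made from DNase-treated total RNA with a NEBNext Ultra kit, per the labels' protocols. Of 34165 names, 23 read as dates and were left out (0.0318 to 0.140% of a library's counts); 31421 of 34142 matched 1 gene of GENCODE M21 (GRCm38). Exon lengths come from that annotation.

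Counts were fitted with edgeR 4.0.16 (limma 3.58.1, R 4.3.3): filterByExpr, TMM factors, 1 robust quasi-likelihood model of 3 group means over all 9 libraries, Benjamini-Hochberg adjustment over 18489 genes, and a call at adjusted p under 0.05. Related genes are said to have risen or fallen only where called. The SE was taken as the size of the log2 fold change over the root of the F statistic. A count of 0 was taken to allow 3 counts per library (0.0287 to 0.131 CPM). These limits and the Poisson intervals hold for counting error alone, as PCR duplicates are not separate molecules. Folds built on the limits take the WT mean as read, without its counting error. P-values reflect the spread among these libraries only, which may be technical. The fit was also run on simulated counts with few changed genes and no difference in library kind. That run cannot speak for the calls in the comparisons with KO + PBS. Between replicates the chi-square per degree of freedom was 18.8 to 306.

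The 10 members and the gene lists were chosen with earlier results of these data known. Named genes are the 10 members and a part of the genes that a rule picked. The rule took from each list up to 4 called genes per comparison with the smallest adjusted p, or the gene with the highest mean where none was called. Not every gene so picked is named, and values are given for some only. Mcpt1, Mrgprb1, Mrgprb2, Fcer1g, Hrh2, Mitf, Awat2, Elovl3, Ptgds, Spdef, Camp, Ngp, Vwf and Pecam1 were named after their values were seen. Genes like Cpa3 and Kit were sought among 13894 tested genes averaging 2 CPM or more, 5 for each. Other settings tried were upper-quartile and RLE scaling, no filter, 1 CPM in 3 libraries, DESeq2 1.42.0, only the groups compared, the replicate number as a block, and leaving out each library.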

Additional observations from a re-analysis of the deposited data

Results flagged for a closer look

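Of 30 values checked for a library far from the other 3 of KO + PBS, 8 stood out. Chance gives about 1 in 20 for independent groups of values, which these are not: the proteases vary together, and where the other 3 libraries are at 0, any read stands out. The values are therefore a description. For the serine proteases the library was KO + PBS replicate 2 each time, at 1.33 CPM for Mcpt4, 2.10 for Tpsb2, 3.24 for Tpsab1 and 0.908 for Cma1, with the other 3 libraries at 0 to 0.0379. The same library stood apart in the melanocyte sum (5086 CPM) and in the sum of histamine receptors and breakdown enzymes (10.6 CPM). Ms4a2 stood out in KO + PBS replicate 4 at 0.0327 CPM, which is 1 read, and the basophil sum did so in the same library at 0.262 CPM.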

How the results depend on the processing

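The related genes called in KO against WT, 0 over all 9 libraries, were 1 with upper-quartile scaling, 1 with the filter of 1 CPM in 3 libraries, 2 with DESeq2 and 24 with only the groups compared, and 0 to 8 when a library was left out. In KO + PBS against KO, 23 became 14 with only the groups compared and 14 to 30 with a library left out; in KO + PBS against WT, 28 became 17 to 36 with a library left out. Members called in KO against WT, 1, became 0 with the replicate block, 2 with only the groups compared, and 0 to 1 with a library left out. In KO + PBS against KO, 2 became 1 to 5, and in KO + PBS against WT, 5 became 2 to 6 with a library left out, 3 with DESeq2 and 2 with the replicate block. The replicate numbers do not pair the libraries: deviations of same-numbered libraries correlated at -0.36 to 0.16, and over all genes of KO against WT the block gave 5 calls, beside 308 without it.

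Signs changed for Kit in KO against WT (-0.0083 with no filter, and -0.16 to 0.15 with a library left out) and for Hdc (-0.37 to 0.97). In KO + PBS against KO the ranges with a library left out were -7.93 to 6.85 for Mcpt4, -6.82 to 7.49 for Tpsb2, -8.25 to 8.10 for Tpsab1, -5.18 to 6.35 for Cma1, -0.073 to 0.80 for Gata2 and -0.78 to 0.61 for Hdc. The fitted protease values there rest on libraries at 0 and are no bounds. In KO + PBS against WT, Gata2 was -0.17 with the replicate block and -0.27 to 0.61 with a library left out, and Hdc -0.27 to 0.50. The causes were not tested. Upper-quartile scaling moved the median of all genes to 0.17 in both comparisons with KO + PBS, from -0.02 and 0.05, and the split of calls from 4370 higher and 5500 lower to 5272 and 4881 against KO, and from 5002 and 5553 to 5662 and 5083 against WT. The naming rule picked 42 related genes and comparisons, not all of them printed above, and 25 were called in every alternative that gave a value. In KO + PBS against KO, the calls absent in some alternative were those of Mcpt2, Hs6st2, Enpp3, Rab27b, Lat2, Orai1, Tslp, Il3ra and Crlf2. Against WT they were those of Rab27b, Hs6st2, Lcp2, Il33, Tslp, Cebpa, Ikzf1 and Lta4h. Depth limits Fcer1a, Ms4a2, Mrgprb1 and Mrgprb2, at 18 reads or fewer in every library.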
